A study of Mus musculus with 10 samples.

Results

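Severe T-cell transfer (TCT) colitis was compared with control colon in 7 of the 10 arrays of the series. The 7 were chosen by their titles, 3 from naïve T-injected mice with severely inflamed colons and 4 from Treg-injected mice without inflammation. The other 3 arrays, from naïve T-injected mice with moderately inflamed colons, shared the estimate of the spread and are given where they show how severe colitis differed.

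All mice were C57BL/6 and Rag1-/-, a genotype without mature T or B cells of its own, so every colon came from an animal that had been given sorted T cells. Severe and moderate mice received naïve T cells and control mice received Tregs, both at 10 weeks of age, and all were sacrificed 2 to 3 months later at 4 to 5 months of age. Control and severe colons therefore differed both in the cells injected and in the inflammation, and these cannot be told apart. Each array measured total RNA of the distal colon of 1 mouse, from rectum to the junction with the proximal colon, muscle wall included. The labels call the arrays biological replicates, grade the inflammation as severe or moderate without a score per mouse, and give no sex, litter or array date.

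In the TCT model, naïve CD4+ T cells enter a host without Tregs, meet antigens of the resident microflora and become effector cells that secrete interferon gamma and other cytokines. These act on macrophages, stromal cells and the epithelium, which release chemokines that bring neutrophils and monocytes into the mucosa. The crypts lengthen as epithelial cells divide, and cells with the features of mature colonocytes, goblet cells and enteroendocrine cells become fewer.

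Values are log2 expression values, on which a difference of 1 is 2-fold and a difference of 2 is 4-fold. Array medians lay between 5.36 and 5.40 and lower quartiles between 3.82 and 3.92, and a gene below 3.92 is called dim here, since the size of a difference is then uncertain. Counts given with dim genes left out used a wider cut, which dropped genes with a mean over all arrays of 5.38 or less. Epithelial markers were high: Epcam, Cdh1 and Krt8 had control means of 13.86, 12.71 and 14.25. Krt13 of squamous epithelium was at 3.51 and Lct of the small intestine at 2.93, both dim. Most members of their lists were not, with 3 of 21 squamous and 2 of 12 small intestinal genes dim in controls. On the first principal component, with 74.5% of the variance, control colons lay from -55.8 to -46.2. Severe colons 1, 2 and 3 lay at 49.5, 32.9 and 43.9, and the moderate colons at 34.4, 29.6 and 18.3, so severe colon 2 fell among the moderate colons. Control 4 lay nearest to the inflamed colons. Pearson's r over all 45101 probe sets was 0.9903 to 0.9943 between severe colons and 0.9625 to 0.9775 between severe and control colons.

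Severe and control colons differed in the expression of 35% of the 18193 genes tested. In severe colon 2929 genes rose, or 16.1% of those tested, and 3437 fell, or 18.9% (limma, Benjamini-Hochberg over all genes, adjusted p under 0.05, two-sided). By at least 2-fold 718 genes rose (3.95%) and 949 fell (5.22%), and by at least 16-fold 38 rose and 19 fell. The 3 severe values lay above all 4 control values for 3929 genes (21.6%) and below them for 4001 (22%). The median difference over all genes was 0.02. In this bulk tissue fewer cells of a type and less RNA per cell cannot be told apart, here and in every comparison that follows.

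**Figure D1:**
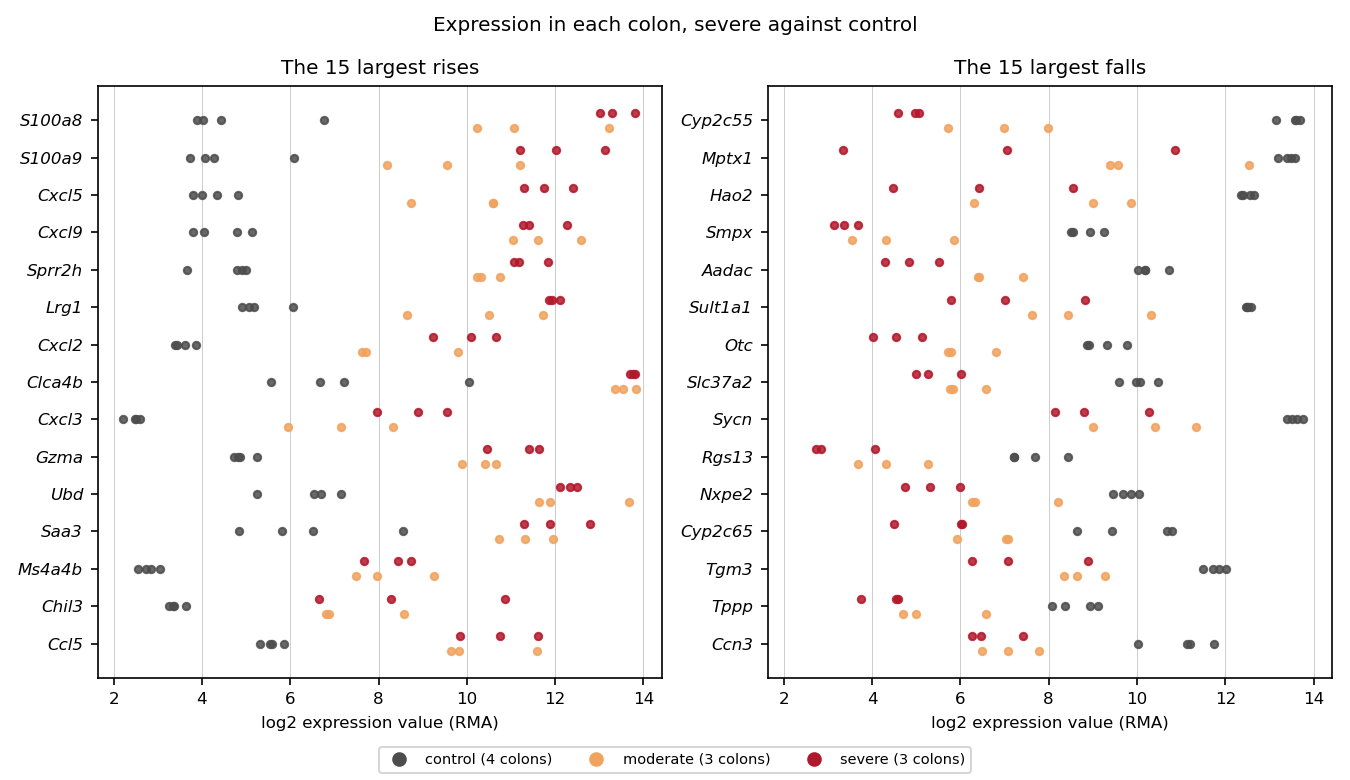
Log2 expression values of the 15 genes with the largest rises and the 15 with the largest falls in severe colon, 1 point per colon (grey control, orange moderate, red severe). Severe and control points do not overlap for any of the 30, since the rule that chose them required it, and control 4 lies to the right of the other controls for Clca4b and Saa3.

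The largest rises were those of S100a8 and S100a9, the subunits of calprotectin, a calcium-binding protein that neutrophils carry in bulk. S100a8 was 6.77, 4.04, 3.90 and 4.43 in controls 1 to 4 and 13.82, 13.01 and 13.29 in severe colons 1 to 3, a difference of 8.59 (standard error 0.76, adjusted p = 2.13e-05). The controls were low with control 1 above the others, and every severe colon was far above all of them. S100a9 rose by 7.58 (standard error 0.74) and the receptor Fpr2, which guides neutrophils to formylated peptides, by 5.11 (standard error 0.44). Of 16 neutrophil genes measured, 13 rose, none fell and the median difference was 2.39, against 0.02 over all genes. Csf3r, the receptor for the growth factor that drives neutrophil production, rose by 1.46, Cxcr2, the receptor for neutrophil chemokines, by 0.99 and Mmp8, neutrophil collagenase, by 1.82 (1.09 without severe colon 1, and not passing under the methods' t-test). The primary granule genes Mpo and Elane, transcribed in marrow precursors, differed by 0.17 and -0.25 and did not pass the test, although Elane passed when arrays were weighted by their quality (array weights, -0.34). The mean of the list was 4.56 to 5.03 in the control colons and 7.08 to 8.41 in the severe colons, and severe colon 1 was the highest for 12 of the 13 genes that rose.

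Chemokines that attract neutrophils through Cxcr2 rose with them. Cxcl5, made by epithelial and stromal cells, was 3.80, 4.35, 3.99 and 4.82 in controls and 12.39, 11.30 and 11.75 in severe colons, a difference of 7.57 (standard error 0.44, adjusted p = 2.61e-06). Every severe colon exceeded every control by more than the spread of either group. Cxcl2 rose by 6.41 (standard error 0.48), Cxcl3 by 6.35 (standard error 0.48) and Cxcl1 by 3.56 (standard error 0.37). Cxcl2 and Cxcl3 were dim in every control, Cxcl3 at 2.22 to 2.59, so the size of their rises is uncertain.

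Cxcl1, Cxcl2 and Cxcl3 are neighbours in the chemokine cluster of chromosome 5, and their promoters are shown because the same letters recur in all 3. Each line gives the 130 bases before the start of the gene, 5′ to 3′ on the plus strand, from RefSeq on GRCm38.p6, at chr5:90891115-90891244 for Cxcl1, chr5:90903769-90903898 for Cxcl2 and chr5:90785971-90786100 for Cxcl3. Capitals mark matches to the kappa-B motif of NF-kB.
Cxcl1: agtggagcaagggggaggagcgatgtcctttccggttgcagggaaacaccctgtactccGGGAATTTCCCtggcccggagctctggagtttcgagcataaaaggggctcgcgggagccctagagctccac
Cxcl2: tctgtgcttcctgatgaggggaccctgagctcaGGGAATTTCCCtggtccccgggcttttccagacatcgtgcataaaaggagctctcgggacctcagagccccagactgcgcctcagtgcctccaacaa
Cxcl3: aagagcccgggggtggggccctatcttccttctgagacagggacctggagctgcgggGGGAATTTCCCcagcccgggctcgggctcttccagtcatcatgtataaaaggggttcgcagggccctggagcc

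The match begins 71 bases before the start in Cxcl1, 97 in Cxcl2 and 73 in Cxcl3. Over the chemokine list, 6 of 25 promoter windows (24%) held a kappa-B match on either strand, against 4.51% of all 32851 windows, each from 250 bases before to 50 after a start. A match describes letters and was not tested as a binding site.

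Of 34 chemokine ligands measured, 25 rose, 2 fell and 7 did not pass, with a median difference of 1.19. Ligands of Cxcr3, the receptor of effector T cells, were led by Cxcl9. Cxcl9 was 4.05, 4.80, 3.80 and 5.13 in controls and 12.28, 11.27 and 11.41 in severe colons, a difference of 7.21 (standard error 0.41, adjusted p = 2.47e-06). Ccl5, an attractant of memory T cells, rose by 5.16 (standard error 0.47). The chemokines that fell were Ccl6, a macrophage chemokine, by 1.03 (standard error 0.14) and Ccl11, the eosinophil attractant eotaxin, by 1.54. The fall of Ccl11 did not pass under the methods' t-test or without severe colon 2 or 3, and with array weights 4 chemokines fell.

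Genes of macrophages and monocytes rose in severe colon. Of 18 measured, 13 rose and 1 fell, with a median difference of 1.81. Fcgr4, an activating receptor for IgG, was 4.35, 4.91, 5.12 and 5.49 in controls and 9.61, 7.89 and 8.02 in severe colons, a difference of 3.54 (standard error 0.39). Severe colon 1 was the highest, as it was for 12 of the 13 genes that rose. Chil3, a chitinase-like protein of activated macrophages, rose by 5.19 from dim control values and spread widely among the severe colons, at 10.86, 8.28 and 6.65. Csf1r, the receptor for macrophage colony-stimulating factor, rose by 1.97, Adgre1, which encodes F4/80, by 0.99 and Fcgr1 by 0.95 (1.61 when averaged over its probe sets). Adgre1 did not pass in 6 of 19 settings, among them each control left out and severe colon 1 left out, when it differed by 0.54. The gene that fell was Mertk, a receptor for apoptotic cells, by 0.51 (standard error 0.11), and Cx3cr1 (0.18), Timd4 (0.08) and Cd163 (-0.93), markers of resident macrophages, did not pass.

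Cytokines and oxidant-producing enzymes rose as well. Of 23 cytokines of the IL-1, IL-6 and TNF families 18 rose and 1, Il18, fell, and 12 of 14 genes of nitric oxide and reactive oxygen rose with none that fell. Il1b, the main secreted IL-1, was 5.52, 5.87, 5.55 and 5.61 in controls and 10.39, 8.63 and 9.21 in severe colons, a difference of 3.77 (standard error 0.45). Controls were close together and severe colons were all higher. Tnfsf11, which encodes RANKL, rose by 3.65 (2.32 when averaged over its probe sets), Ltb, a lymphotoxin subunit, 6.06-fold and Tnf by 1.99. Cybb, the catalytic subunit of the phagocyte NADPH oxidase, rose by 4.13 (standard error 0.45), Arg1, an arginase of macrophages, by 4.09 from mostly dim controls, and Duoxa2, the maturation factor of epithelial Duox2, by 2.86, with control 4 at 6.10 above the other controls. Nos2, inducible nitric oxide synthase, rose by 1.67 (standard error 0.15).

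Of 24 pattern receptors and inflammasome genes 13 rose and none fell, and of 14 complement genes 10 rose and none fell. The C-type lectin receptors led, with Clec4e, which binds mycobacterial glycolipid, higher by 5.04 (standard error 0.52), Clec4d by 4.72 (standard error 0.43) and Clec7a, the beta-glucan receptor dectin-1, by 4.46 (standard error 0.40). Clec7a was 6.18, 6.05, 6.16 and 6.36 in controls and 11.42, 9.83 and 10.70 in severe colons, with no overlap, which the rule that named it required. Tlr5, Tlr9, Casp1 and Pycard differed by -0.01, -0.05, -0.06 and 0.07 and did not pass, except Pycard under the methods' t-test. The chains of C1q, which starts the classical pathway and is made by macrophages, rose by 2.38 (C1qb), 2.01 (C1qa) and 1.83 (C1qc).

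**Figure D2:**
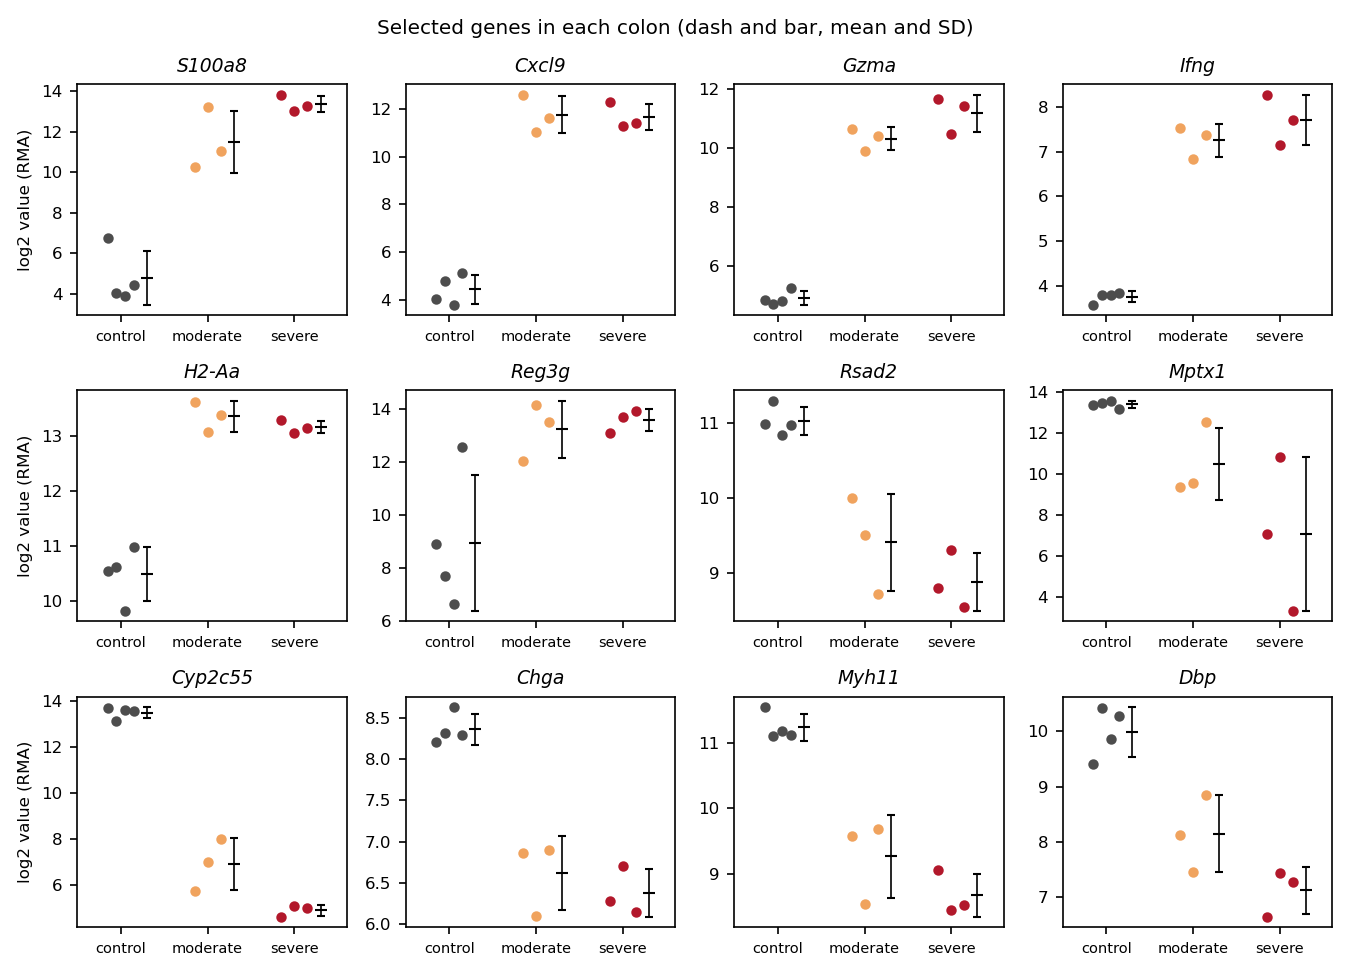
Log2 expression values of 12 genes in each colon, with the mean (dash) and SD (bar) of the 4 control, 3 moderate and 3 severe colons, each panel on its own axis. Severe colons stand above all controls for S100a8 to Reg3g and below them for Rsad2 to Dbp, with Mptx1 spread from 3.34 to 10.85 among severe colons.

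Genes of the transferred T cells and of cytotoxic lymphocytes rose in all 3 severe colons, although control mice had received T cells too. Of 15 T cell genes 13 rose and none fell, with a median difference of 1.02. Cd3g, a chain of the T cell receptor complex, was 3.62, 3.81, 3.31 and 3.43 in controls and 8.38, 7.22 and 8.35 in severe colons, a difference of 4.44 (standard error 0.34, adjusted p = 1.07e-05). Control values were dim and severe colon 2 was the lowest of the severe colons. Cd3d rose by 2.59, Trat1, an adaptor of the receptor, by 2.70, Cd3e by 0.61 and Cd4, the coreceptor of helper T cells, by 0.35. Cd4 rose by 0.22 when averaged over its probe sets, and it did not pass without control 3 (0.30), severe colon 1 (0.33) or severe colon 2 (0.29).

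Gzma, a granzyme of cytotoxic granules, was 4.85, 4.73, 4.82 and 5.25 in controls and 11.64, 10.47 and 11.40 in severe colons, a difference of 6.25 (standard error 0.27, adjusted p = 1.14e-06). Gzmb rose by 4.90 (standard error 0.23) and Klrd1, the lectin CD94, by 3.25 (standard error 0.30). Of 16 cytotoxic genes 13 rose, or 7 with dim genes left out, and the median difference was 1.55. Cd8a differed by 0.00 in its brightest probe set (adjusted p = 0.98). Of its 5 probe sets 1 rose, their differences reached 0.64, and their mean differed by 0.28 and did not pass (adjusted p = 0.158). Prf1, which encodes perforin, differed by -0.21 (adjusted p = 0.11), a fall that passed under the methods' t-test. When its probe sets were averaged, Prf1 differed by 0.22 (adjusted p = 0.0326). Ms4a4b, a membrane protein of T cells, rose by 5.49 from dim controls (3.15 when averaged over its probe sets).

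Ifng, the cytokine of type 1 helper T cells, was dim in controls, at 3.56 to 3.84, and 8.27, 7.15 and 7.70 in severe colons, a difference of 3.96 (standard error 0.24, adjusted p = 2.74e-06). The groups were far apart and severe colon 2 was again the lowest. Of 15 helper T cell genes 6 rose, or 1 with dim genes left out, and 11 were dim in controls. They included Tbx21, the type 1 factor T-bet, at 1.59, Gata3 at 2.66, Stat4 at 1.38 and Il17a, the type 17 cytokine, at 0.75 (standard error 0.12). Il4, Il5, Il13 and Il10 differed by -0.02 to 0.10 and did not pass. Il21 differed by 0.09 and did not pass in the brighter of its 2 probe sets, but the other rose by 0.87 and their mean rose by 0.48 (adjusted p = 0.0025).

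Of 10 genes of Tregs 7 rose, led by Capg, an actin-capping protein (2.81), Itgae, the integrin CD103 (2.17), and Ctla4, an inhibitory receptor (1.90). Foxp3, the factor that defines Tregs, was dim and differed by 0.10 (adjusted p = 0.42), in a comparison whose controls had received Tregs. Of 15 dendritic cell genes 6 rose, with Itgax, the integrin CD11c, at 2.64, Cd86 at 1.90 and Cd40 at 1.58, both costimulatory molecules. Of 12 genes of B and plasma cells, which Rag1-/- hosts do not form, 1 rose (Cd79b by 0.34) and 1 fell (Fcer2a by 0.34). Each is 8.33% of the list, against 16.1% higher and 18.9% lower over all genes. Each missed the threshold in 4 or more of the settings tried. Ms4a1, Cd79a and Jchain did not pass.

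Mucosal mast cell proteases stood apart in their order among severe colons. Mcpt2 was 4.62, 4.25, 4.58 and 4.62 in controls and 6.25, 6.97 and 8.72 in severe colons, a difference of 2.80 (standard error 0.72), and Mcpt1 rose by 2.73 (standard error 0.70) from dim controls. Both were the highest in severe colon 3, and neither passed without it. Of 15 mast cell and eosinophil genes 3 rose (20%, against 16.1% of all genes; 1 with dim genes left out or without severe colon 3, 5 when averaged over probe sets) and 1 fell (6.67%, against 18.9%). The gene that fell was Kit, by 1.93, which is counted again below with interstitial cells of Cajal. Cpa3 and Tpsab1 of connective tissue mast cells did not pass, except Cpa3 with array weights (0.88).

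The response to interferon split in severe colon. Genes for interferon-inducible GTPases and antigen presentation rose, while a group of antiviral genes fell. Of 27 interferon response genes 17 rose (63%), 7 fell (25.9%, against 18.9% of all genes) and 3 did not pass, with a median difference of 1.12. Ido1, which breaks down tryptophan, was 7.25, 7.86, 6.62 and 9.24 in controls and 12.91, 13.07 and 12.44 in severe colons, a difference of 5.06 (standard error 0.53, adjusted p = 5.01e-05). Control 4 was the highest control for 11 of the 17 genes that rose, and every severe colon was above it for Ido1. The immunity-related GTPase Iigp1 rose by 4.25 (standard error 0.56) and the guanylate-binding protein Gbp8 by 3.71 (standard error 0.37). Igtp (2.15), Irgm2 (1.11) and Gbp2 (2.58), GTPases of the same families, and Socs1 (3.04), a feedback inhibitor of interferon signaling, also rose. Ubd, a ubiquitin-like protein induced by interferon gamma and TNF, rose by 5.91.

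Rsad2, which encodes the antiviral enzyme viperin, went the other way, with 10.99, 11.29, 10.84 and 10.97 in controls and 8.80, 9.31 and 8.55 in severe colons, a difference of -2.13 (standard error 0.27, adjusted p = 0.00015). Every severe colon was below every control. Ifit1, which binds viral RNA, fell by 1.98 (standard error 0.37) and Irf7, the master factor of type I interferon induction, by 1.66 (standard error 0.22). The remaining falls were those of the oligoadenylate synthetases Oas2 by 1.17 and Oas1a by 0.75, Xaf1 by 0.91 and Irf9, an interferon regulatory factor, by 0.49. Xaf1 fell by 0.60 when averaged over its probe sets and did not pass without severe colon 3 (-0.75). Severe colon 2 was the highest of the severe colons for all 7 genes that fell. Ifit2, close in sequence to Ifit1, rose by 2.62.

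Promoters of genes from both directions are shown with matches to the GAS motif TTCNNNGAA and the ISRE motif GAAANNGAA, both known from interferon-responsive promoters, on either strand in capitals. They are the 130 bases before the start from RefSeq on GRCm38.p6, 5′ to 3′ on the strand of the gene. Igtp lies at chr11:58199426-58199555 and Irgm2 at chr11:58214847-58214976, both on the plus strand, as do Gbp2 at chr3:142620533-142620662 and Ifit1 at chr19:34640759-34640888. Socs1 at chr16:10785537-10785666 and Rsad2 at chr12:26456453-26456582 lie on the minus strand.
Igtp: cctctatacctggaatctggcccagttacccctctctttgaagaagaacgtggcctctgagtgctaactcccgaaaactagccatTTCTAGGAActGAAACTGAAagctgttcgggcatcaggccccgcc
Irgm2: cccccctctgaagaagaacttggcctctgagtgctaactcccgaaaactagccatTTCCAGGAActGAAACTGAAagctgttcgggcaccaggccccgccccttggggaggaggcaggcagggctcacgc
Gbp2: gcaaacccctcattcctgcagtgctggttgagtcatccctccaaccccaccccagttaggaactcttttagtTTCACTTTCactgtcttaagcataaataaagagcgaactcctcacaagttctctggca
Socs1: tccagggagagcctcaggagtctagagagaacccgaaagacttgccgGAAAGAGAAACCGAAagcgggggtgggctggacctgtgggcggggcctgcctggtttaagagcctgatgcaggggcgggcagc
Rsad2: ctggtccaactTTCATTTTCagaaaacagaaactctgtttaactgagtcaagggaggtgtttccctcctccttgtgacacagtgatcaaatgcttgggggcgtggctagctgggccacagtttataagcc
Ifit1: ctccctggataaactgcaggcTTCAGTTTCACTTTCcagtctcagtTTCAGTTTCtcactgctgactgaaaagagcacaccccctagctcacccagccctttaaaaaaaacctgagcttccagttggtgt

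In Igtp a GAS match began 45 bases and an ISRE match 34 bases before the start, and Irgm2 held the same pair at 75 and 64. Among genes that rose, 6 of 16 promoter windows (37.5%) held a GAS match and 8 (50%) an ISRE match. Among genes that fell, 1 of 7 windows (14.3%) held a GAS match and 3 (42.9%) an ISRE match. Over all 32851 windows the shares were 8.3% and 8.56%. These counts are small and describe letters alone.

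Antigen presentation rose through both classes of MHC. Of 15 MHC class I genes all 15 rose, with a median difference of 0.66, and of 11 class II genes 8 rose and none fell, with a median of 2.67. Ciita, the factor that switches on class II genes, was 4.18, 4.33, 3.52 and 4.50 in controls and 7.38, 7.40 and 7.47 in severe colons, a difference of 3.28 (standard error 0.32, adjusted p = 3.33e-05). The severe colons were close together and all above the controls. H2-DMa, which loads peptides, rose by 3.30, H2-Eb1 by 3.05 and H2-Aa by 2.67, while Ctss and Ifi30, which cut and reduce antigens, differed by -0.17 and -0.08 and did not pass. In class I, Nlrc5, its transactivator, rose by 2.53, Tap1, the peptide transporter, by 2.12 (0.72 when averaged over its probe sets) and Psmb9, an immunoproteasome subunit, by 1.76. Control 4 was the highest control for 12 of the 15 class I genes.

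Antimicrobial and acute phase genes rose for the most part. Of 30 measured 18 rose (60%) and 5 fell (16.7%, against 18.9% of all genes), with a median difference of 1.58. Saa3, a local serum amyloid, was 6.51, 5.81, 4.84 and 8.55 in controls and 12.79, 11.29 and 11.88 in severe colons, a difference of 5.56 (standard error 0.72). Lcn2, which withholds iron from bacteria, rose by 3.75 (standard error 0.41) and Lrg1, an acute phase glycoprotein, by 6.66 (standard error 0.56). Reg3g, a lectin against Gram-positive bacteria, was 8.90, 7.69, 6.65 and 12.54 in controls and 13.09, 13.70 and 13.90 in severe colons, a difference of 4.62 (standard error 1.11) that did not pass under the methods' t-test (adjusted p = 0.0807). Control 4 was nearly as high as the severe colons for Reg3g, and it was also the highest control for Saa3 and for Clca4b, a secreted protein of surface epithelium that rose by 6.39.

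Mptx1, a mucosal pentraxin that binds bacteria, fell by 6.33 (standard error 1.38, adjusted p = 0.00448). It was 13.41, 13.50, 13.57 and 13.19 in controls and 7.07, 10.85 and 3.34 in severe colons. The severe colons were all lower and far from one another, and the fall did not pass under the methods' t-test. Reg4, a lectin of secretory cells, fell by 3.92 (standard error 0.59) and Ang, a ribonuclease, by 1.39 (standard error 0.17). The other falls were smaller and less steady: Pigr, which carries IgA across the epithelium, by 0.44, not passing without severe colon 1 or 3, and Il18, an epithelial cytokine, by 0.89, not passing in 10 of 19 settings. Only 3 of the 5 falls passed without severe colon 1 or without severe colon 3.

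Genes of regenerating epithelium rose, and a few genes usual in squamous epithelium rose. Of 19 genes of regeneration and ErbB ligands 14 rose and 2 fell (1 in 7 of 19 settings), with a median of 0.71. Plaur, the urokinase receptor, rose by 2.43, Krt7, a keratin of simple duct epithelium, by 1.47 and Ptgs2, cyclooxygenase 2, by 2.20 (1.35 when averaged over its probe sets). Nrg1 and Ereg, ligands of ErbB receptors, rose by 1.40 and 1.12, and the rise of Ereg did not pass under the methods' t-test. Gsdmc2, a gasdermin of colonocytes, fell by 2.97 (standard error 0.65).

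Ly6d, a surface protein of squamous and progenitor cells, was 4.76, 5.18, 4.84 and 5.30 in controls and 9.43, 9.44 and 9.85 in severe colons, a difference of 4.55 (standard error 0.27, adjusted p = 2.91e-06). The groups stood far apart with little spread in either. The cornified envelope proteins Sprr2h and Sprr1a rose by 6.77 and 3.55 and Sfn, the stratifin of stratified epithelia, by 1.52. Of 21 squamous genes 5 rose (23.8%, against 16.1% of all genes; 3 with dim genes left out) and 2 fell (9.52%, against 18.9%; 1 with dim genes left out). The other 14 did not pass, among them Krt5 (0.09), Krt14 (-0.14), Krt13 (0.04) and Trp63 (0.08), the defining genes of squamous epithelium. Krt13 rose by 0.25 when averaged over its 3 probe sets (adjusted p = 0.041), of which 1 passed at 0.46.

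**Figure D3:**
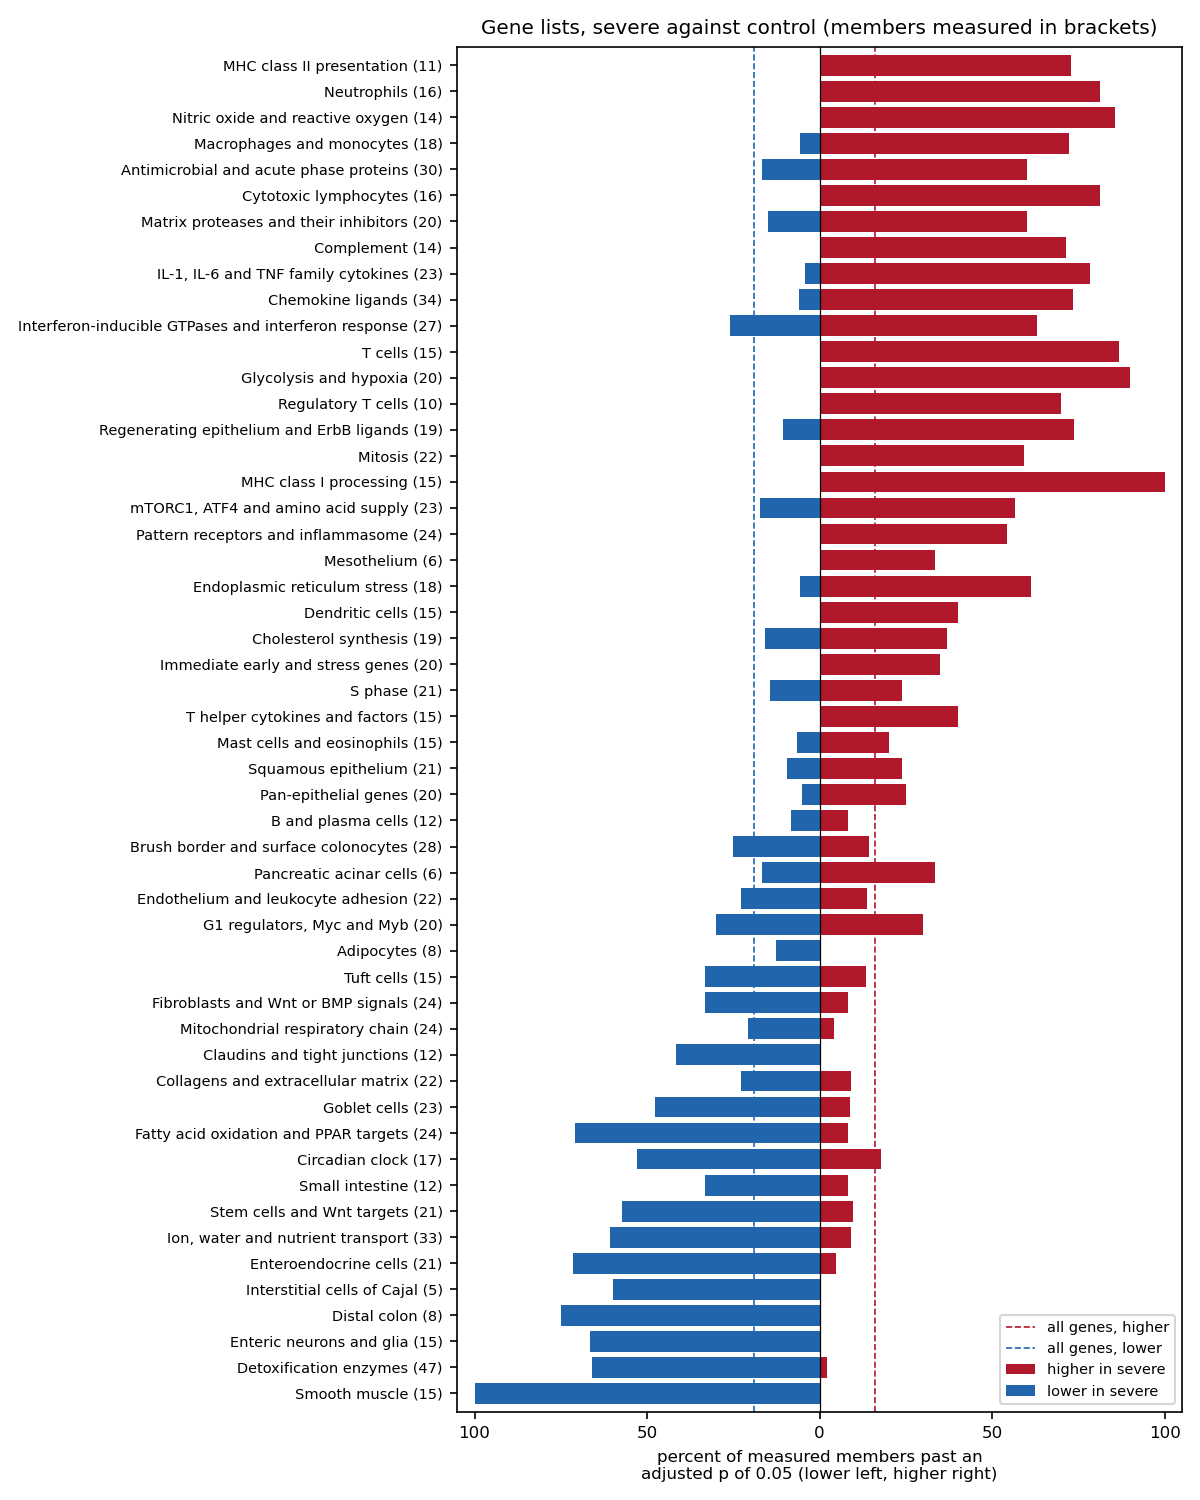
Percent of measured members of each gene list that rose (right, red) or fell (left, blue) in severe colon at an adjusted p under 0.05, with the number of members measured in brackets. The dashed lines mark the shares over all genes, 16.1% higher and 18.9% lower; bars run from all 15 MHC class I genes that rose to all 15 smooth muscle genes that fell.

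Detoxification enzymes of mature colonocytes made up the epithelial list with the most falls. Of 47 measured 31 fell, 1 rose and 15 did not pass, with a median difference of -1.32. Cyp2c55, a cytochrome P450 of the colon, had the largest fall of all genes: it was 13.70, 13.16, 13.61 and 13.57 in controls and 4.60, 5.08 and 4.97 in severe colons, a difference of -8.63 (standard error 0.40, adjusted p = 1.14e-06). All 3 severe colons were close together and far below the controls, and the moderate mean was 6.90. Hao2, a peroxisomal hydroxyacid oxidase, fell by 6.01 (standard error 0.92) and Sult1a1, a sulfotransferase of phenols, by 5.30 (standard error 0.68), with severe colons at 7.01, 8.81 and 5.79 against 12.47 to 12.58 in controls. The member that rose was Cyp2j6, an epoxygenase, by 1.01 (standard error 0.16). Aadac, an arylacetamide deacetylase, fell by 5.40 and Otc, the urea cycle enzyme ornithine transcarbamylase, by 4.65 (3.00 when averaged over its probe sets).

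Transport genes fell in part. Of 33 measured 20 fell, 3 rose and 10 did not pass, with a median difference of -0.84. Slc37a2, a sugar phosphate exchanger, was 9.60, 10.47, 10.08 and 9.98 in controls and 5.28, 6.00 and 5.00 in severe colons, a difference of -4.60 (standard error 0.28, adjusted p = 2.91e-06). Slc30a10, a manganese exporter, fell by 3.77 to dim values and Trpm6, the magnesium channel, by 3.27 (standard error 0.43). Aqp8, the colonic water channel, fell by 1.79 (standard error 0.30), Cftr, the chloride channel, by 1.62 (0.90 when averaged over its probe sets) and Car1, a carbonic anhydrase, by 1.06. Slc26a3, the chloride-bicarbonate exchanger, fell by 0.84 in its brightest probe set and by 1.56 on average over 4 that all passed. Its fall was 0.55 without severe colon 1 and did not pass under the methods' t-test. The members that rose were Slc7a11, the cystine-glutamate exchanger (2.31), Slc51b, a bile acid transporter subunit (1.65), and Slc39a4, a zinc importer (0.82). The sodium channel subunits Scnn1b and Scnn1g and the exchanger Slc9a3 did not pass, at -0.26, 0.67 and -0.71.

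Most brush border and pan-epithelial genes did not pass. Of 28 brush border genes 7 fell (25%, against 18.9% of all genes) and 4 rose (14.3%, against 16.1%), the rises being 1 under the methods' t-test, 8 without severe colon 1 and 2 without severe colon 3, and the median was 0.03. Mep1a, a brush border metalloprotease, was 11.59, 11.04, 11.18 and 11.53 in controls and 7.37, 8.82 and 8.15 in severe colons, a difference of -3.22 (standard error 0.33). Guca2a, the peptide guanylin, fell by 2.03 while Eps8, an actin-bundling protein of microvilli, rose by 0.73 and Krt20, a keratin of surface cells, by 0.49, a rise that did not pass under the methods' t-test. Villin (Vil1) differed by 0.14 and did not pass, except without severe colon 1 (0.27). Of 20 pan-epithelial genes 5 rose (25%, against 16.1% of all genes; 3 under the methods' t-test or without severe colon 2, 2 without severe colon 3), 1 fell (5%, against 18.9%; 0 to 2 over the settings) and 14 did not pass, with a median of 0.08. Epcam, an adhesion molecule of all epithelial cells, differed by -0.02, Cdh1 by 0.16 and Krt8 by 0.11 (passing under the methods' t-test), and the mean of the list was 11.71 to 11.80 in control and 11.79 to 12.00 in severe colons.

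Of the 12 genes measured in the tight junction list 5 fell and none rose. Occludin (Ocln) was 10.73, 10.98, 10.68 and 10.87 in controls and 9.73, 9.68 and 9.76 in severe colons, a difference of -1.09 (standard error 0.09, adjusted p = 1.45e-05). Cldn23 fell by 0.77, Cldn2, a claudin that forms cation pores, by 0.70, Cldn15 by 0.82 and Marveld2 by 0.39, and the fall of Cldn15 did not pass under the methods' t-test. Other tight junction genes, counted among the pan-epithelial genes, rose: Cldn4 by 1.57 (standard error 0.30), Tjp3 by 0.49 and Cldn7 by 0.27. The rise of Tjp3 did not pass under the methods' t-test or without severe colon 3.

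Genes of secretory cells fell in part, with the largest share of falls in the enteroendocrine list. Of 21 measured 15 fell, 1 rose and 5 did not pass, with a median of -1.07. Insl5, a peptide of distal L cells, was 11.60, 11.42, 11.92 and 11.22 in controls and 8.69, 9.50 and 7.78 in severe colons, a difference of -2.88 (standard error 0.41). Scg5, a chaperone of prohormone convertase, fell by 2.06, Gcg, which encodes GLP-1, fell by 2.02 and Chga, the granule protein chromogranin A, fell by 1.98 (standard error 0.20). The member that rose was Tac1, the substance P precursor of enterochromaffin cells and neurons, by 2.51 (standard error 0.28; 1.37 when averaged over its probe sets). Control and severe colons did not overlap for any of these 5 genes, which the rule that named them required of all but Chga.

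Among 23 genes of goblet cells there were 11 falls (47.8%, against 18.9% of all genes) and 2 rises (8.7%, against 16.1%). The other 10 did not pass, and the median was -0.55. Klk1, a kallikrein, was 13.81, 13.83, 14.07 and 13.80 in controls and 10.80, 11.58 and 10.83 in severe colons, a difference of -2.81 (-1.70 when averaged over its probe sets). Atoh1, the factor that sets the secretory fate, fell by 1.32 (standard error 0.20). Clca1, a secreted mucus protease, fell by 1.48, with 0.92 without severe colon 1, and did not pass under the methods' t-test. Muc2, the gel-forming mucin (-0.44, adjusted p = 0.0649), Spdef (-0.07), Tff3 (-0.38) and Zg16 (-0.34) did not pass. Muc2 passed without control 2 (-0.57), Tff3 under the replicate block (-0.36) and Zg16 in 4 of 19 settings, -0.46 without severe colon 2 among them. The members that rose were Galnt3, which starts O-linked glycans, by 0.75 (standard error 0.11) and Retnlb, a resistin-like antimicrobial protein, by 3.10 (standard error 0.91). Retnlb was 10.71, 7.61, 9.44 and 12.79 in controls and 12.90, 13.68 and 13.14 in severe colons, and did not pass in 6 of 19 settings.

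Of 15 tuft cell genes 5 fell (1 with dim genes left out) and 2 rose (0 under the methods' t-test, 1 under the replicate block and without control 3 or severe colon 3). Rgs13, a regulator of G-protein signaling, fell by 4.42 (standard error 0.43) to dim values in severe colons 1 and 3, and Hpgds, a prostaglandin D synthase, by 1.42 (standard error 0.17). Sh2d6, Trpm5 and Alox5 fell by 0.48, 0.45 and 0.45, and the fall of Alox5 did not pass under the methods' t-test or without severe colon 2 (-0.40) or 3 (-0.37). Alox5ap, which is also a gene of neutrophils and macrophages, rose by 1.28 (0.77 without severe colon 1, and not passing under the methods' t-test). Pou2f3, a tuft cell factor, differed by -0.13 and did not pass. Dclk1, a kinase of tuft cells, differed by 0.00 in its brightest probe set, but 3 of its 9 probe sets fell, the lowest by 1.74, and their mean fell by 0.52 (adjusted p = 0.0103).

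Among 21 stem cell and Wnt target genes there were 12 falls (57.1%, against 18.9% of all genes) and 2 rises (9.52%, against 16.1%). The median was -0.68. Lgr5, the R-spondin receptor of crypt base stem cells, was 6.73, 6.52, 6.64 and 6.73 in controls and 5.85, 5.71 and 5.15 in severe colons, a difference of -1.09 (standard error 0.18, adjusted p = 0.00079). No severe colon reached the lowest control, but the second probe set of Lgr5 differed by -0.01 and the mean of both fell by 0.55. Nkd1 fell by 1.61, Tnfrsf19 by 1.12 and Znrf3, a ligase that removes Wnt receptors, by 1.45, but by 0.37, 0.39 and 0.51 when averaged over their probe sets, and 1 of 2 probe sets of Znrf3 rose. Olfm4 rose by 2.22 from dim controls and Cd44, an adhesion receptor, by 1.08, and neither passed under the methods' t-test.

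Of 8 distal colon markers 6 fell (3 under the methods' t-test). The largest falls were those of Insl5 by 2.88 and Aqp8 by 1.79, both already given above, and Car4 by 1.24. The fall of Car4 did not pass under the methods' t-test. Hoxb13, a homeobox factor of the distal hindgut, was 10.92, 11.99, 11.80 and 11.58 in controls and 10.48, 10.83 and 10.49 in severe colons, a difference of -0.97 (standard error 0.22) that did not pass under the methods' t-test. Hoxd13 differed by -0.39 (adjusted p = 0.65). Of 12 small intestinal genes 4 fell (33.3%, against 18.9% of all genes; 2 under the methods' t-test) and 1 rose (8.33%, against 16.1%; 2 without severe colon 1). The rise was that of the protease Mmp7 by 3.36, with control 2 at 7.97 above the other controls. Fabp2, an intestinal fatty acid carrier, fell by 2.20, a fall that did not pass under the methods' t-test. Lct and Fabp6 did not pass.

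Genes of mitosis rose, and most of S phase did not pass. Of 22 mitosis genes 13 rose (59.1%) and none fell, with a median of 0.71. Of 21 S phase genes 5 rose (23.8%, against 16.1% of all genes; 3 in 6 of 19 settings), 3 fell (14.3%, against 18.9%; 1 when averaged over probe sets and 0 without severe colon 2 or 3) and 13 did not pass. Birc5, which encodes survivin, was 8.75, 8.75, 8.60 and 8.77 in controls and 9.91, 9.58 and 9.88 in severe colons, a difference of 1.07 (standard error 0.14). Plk1, a mitotic kinase, rose by 0.99 and Mki67, which encodes Ki-67, by 0.74. In S phase Rrm2, a subunit of ribonucleotide reductase, rose by 1.92 (standard error 0.16) and Fen1, a flap endonuclease, by 0.76, whereas Mcm7 (0.00), Pcna (-0.34) and Mcm6 (-0.38) did not pass.

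Among G1 regulators Ccnd1, cyclin D1, rose by 1.14 (standard error 0.13) while the CDK inhibitors Cdkn2b, p15, and Cdkn1c, p57, fell by 1.44 (standard error 0.18) and 1.05 (standard error 0.17). Myb, a factor of crypt progenitors, was 11.06, 11.04, 11.05 and 10.97 in controls and 10.13, 10.06 and 9.96 in severe colons, a difference of -0.98 (standard error 0.07, adjusted p = 1.08e-05). The groups were tight and apart. Myc differed by 0.17 (adjusted p = 0.39). Of 20 G1 genes 6 rose (30%, against 16.1% of all genes; 3 under the methods' t-test and without severe colon 1) and 6 fell (30%, against 18.9%).

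Genes of glycolysis and amino acid synthesis rose and genes of fatty acid oxidation fell. Of 20 genes of glycolysis and hypoxia 18 rose and none fell, with a median difference of 0.90. Egln3, an oxygen-sensing prolyl hydroxylase, was 8.93, 9.34, 8.99 and 9.19 in controls and 11.31, 11.24 and 11.42 in severe colons, a difference of 2.21 (standard error 0.11, adjusted p = 1.26e-06). Both groups were tight and far apart. Pfkfb3, which raises the activator of phosphofructokinase, rose by 3.13 (1.75 when averaged over its probe sets), Adm, the peptide adrenomedullin, by 2.35, Hk2, hexokinase 2, by 1.59 and Hif1a, the oxygen-regulated factor, by 0.88. Car9 differed by 0.25 and did not pass.

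Of 24 genes of fatty acid oxidation and PPAR targets 17 fell and 2 rose, with a median of -0.56. Ppargc1a, a coactivator of mitochondrial biogenesis, was 9.97, 10.25, 10.01 and 9.96 in controls and 7.58, 8.44 and 7.48 in severe colons, a difference of -2.22 (standard error 0.20, adjusted p = 2.28e-05). Ppara, the receptor that induces oxidation genes, fell by 1.57 (standard error 0.13) and Cd36, a fatty acid transporter, by 1.58. Acadl, a long-chain acyl-CoA dehydrogenase, rose by 0.76 (standard error 0.10), and Angptl4 by 0.49, which did not pass in 7 of 19 settings. Of 24 respiratory chain genes 18 did not pass, 5 fell (20.8%, against 18.9% of all genes) and 1 rose, with a median of -0.10. The falls included Cox7a1 by 1.69 and Cox8b by 0.85, subunit forms of muscle, and Ndufa1 by 0.55, and the rise of Cycs, cytochrome c, by 0.25 did not pass in 11 of 19 settings and turned to -0.03 when averaged over its probe sets.

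Of 23 genes of mTORC1, ATF4 and amino acid supply 13 rose (56.5%, against 16.1% of all genes) and 4 fell (17.4%, against 18.9%). The median was 0.64. Psat1, of serine synthesis, was 6.64, 6.74, 6.67 and 6.66 in controls and 9.14, 8.46 and 8.58 in severe colons, a difference of 2.05 (standard error 0.23). Chac1, which degrades glutathione, rose by 2.47 (standard error 0.21), Phgdh by 1.64 and Asns, asparagine synthetase, by 1.63. The falls were those of Cth, cystathionine gamma-lyase, by 1.71, Slc1a5, a glutamine transporter, by 1.03 (0.67 when averaged over its probe sets), Ddit3, the stress factor CHOP, by 0.48 and Rheb, the GTPase that activates mTORC1, by 0.36. Atf4 itself differed by 0.23 in its brightest probe set and did not pass, but 2 of its 3 probe sets rose, one by 1.05, and their mean rose by 0.53 (adjusted p = 0.000222).

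Of 18 genes of endoplasmic reticulum stress 11 rose and 1, Ern2, a sensor of goblet cells, fell by 0.87 (2 falls without control 4). Creld2 rose by 1.14, Manf by 0.94 and Hyou1, a chaperone, by 0.92 (standard error 0.10), and severe colon 3 was the highest for 9 of the 11. Of 19 cholesterol synthesis genes 7 rose (4 under the methods' t-test and without severe colon 1 or 3) and 3 fell (15.8%, against 18.9% of all genes; 1 under the replicate block and without control 1, 3 or 4 or severe colon 1 or 3), with changes of 0.27 to 0.73. Of 17 clock genes 9 fell (52.9%, against 18.9% of all genes) and 3 rose (17.6%, against 16.1%; 1 without control 3 or severe colon 1 or 3), with a median of -0.60. Dbp, an output factor of the clock, was 9.41, 10.41, 9.85 and 10.27 in controls and 6.65, 7.45 and 7.28 in severe colons, a difference of -2.86 (standard error 0.33), and Nr1d2, a Rev-erb repressor, fell by 1.51 (standard error 0.12). The labels give no hour of collection, so time of day and inflammation cannot be told apart for these genes. Nfil3, a repressor that opposes Dbp, rose by 1.88 (standard error 0.20). Of 20 immediate early genes, which respond to handling as well as to inflammation, 7 rose, with Egr2 at 2.78 and Ier3 at 1.88, while Fos, Egr1 and Atf3 differed by -0.08, 0.51 and -0.14 and did not pass.

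Genes of the muscle wall and its nerves fell. Of 15 smooth muscle genes all 15 fell, with a median difference of -1.77. The severe values lay below all control values for all 15, against 22% of all genes. Myh11, smooth muscle myosin, was 11.54, 11.10, 11.18 and 11.11 in controls and 9.05, 8.44 and 8.52 in severe colons, a difference of -2.56 (standard error 0.26, adjusted p = 4.12e-05). Smpx, a small muscle protein, fell by 5.42 to dim values, Myl9, a myosin light chain, by 2.74 (standard error 0.28), Actg2, enteric actin, by 1.76 and Des, desmin, by 1.65 (0.89 when averaged over its probe sets). The mean of the list was 10.36 to 10.72 in control and 8.32 to 8.56 in severe colons.

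Of 15 genes of enteric neurons and glia 10 fell and none rose, with a median of -1.19. Stmn2, a tubulin regulator of neurons, was 7.70, 7.15, 7.29 and 7.40 in controls and 5.76, 5.30 and 5.65 in severe colons, a difference of -1.81 (standard error 0.21). Snap25, of synaptic release, fell by 2.15 (1.28 when averaged over its probe sets) and Scn7a, a sodium channel of glia, by 1.98, while Sox10, the glial factor, differed by -0.13 and did not pass. Of 5 genes listed for interstitial cells of Cajal, the pacemakers of the gut, 3 fell. They were Kit by 1.93 (1.13 when averaged over its probe sets), Ano1, the chloride channel of these cells, by 1.30 and Kitl, which encodes the ligand of Kit, by 1.07. Kit is also a mast cell gene. Neurons, interstitial cells and muscle share the layers of the wall, and the 3 lists fell together while the pan-epithelial mean did not fall. The part of the muscle content of each piece of tissue in these falls was not tested.

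Matrix proteases rose while collagens mostly did not pass. Of 20 matrix proteases and inhibitors 12 rose (60%, against 16.1% of all genes) and 3 fell (15%, against 18.9%). The median was 1.40, and 1 fell under the methods' t-test. Mmp13, an interstitial collagenase, was 4.65, 4.48, 4.13 and 4.19 in controls and 10.42, 7.85 and 8.35 in severe colons, a difference of 4.51 (standard error 0.67). Severe colon 1 was the highest for all 12 that rose. Mmp12, macrophage elastase, rose by 4.75 from dim controls, and Timp2, an inhibitor, fell by 1.40 (0.74 when averaged over its probe sets).

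Of 22 genes of collagens and matrix 5 fell (22.7%, against 18.9% of all genes), 2 rose (9.09%, against 16.1%) and 15 did not pass. The falls numbered 3 without severe colon 2 and under the methods' t-test, 8 with array weights and 11 without severe colon 1, and the rises were 1 in 11 of 19 settings and 4 without severe colon 2. Col1a1 and Col3a1, the main fibrillar collagens, differed by 0.72 (adjusted p = 0.0526) and -0.51 and did not pass. Col1a1 passed in 6 of 19 settings, among them without control 2 (0.83) and without severe colon 2 (1.002), and Col3a1 with array weights (-0.57) and without severe colon 1 (-0.90). Postn, periostin of the pericryptal sheath, fell by 1.92 (standard error 0.23) and Col14a1 by 2.62 (1.22 when averaged over its probe sets). Of 24 genes of fibroblasts and their Wnt and BMP signals 8 fell (33.3%, against 18.9% of all genes; 5 under the methods' t-test) and 2 rose (8.33%, against 16.1%). The rises were 0 without control 4, severe colon 1 or severe colon 3, 1 under the methods' t-test, the replicate block and without control 2 or 3, and 5 without severe colon 2. Dpt, dermatopontin, was lower by 1.86 (standard error 0.23) and Lum, lumican, by 1.68.

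Of 22 genes of endothelium and leukocyte adhesion 3 rose (13.6%, against 16.1% of all genes) and 5 fell (22.7%, against 18.9%; 8 without severe colon 1). The rises were of molecules that hold leukocytes. Icam1 was 5.13, 5.23, 5.25 and 5.40 in controls and 9.32, 8.02 and 8.73 in severe colons, a difference of 3.44 (standard error 0.32, adjusted p = 2.91e-05). Vcam1 rose by 2.28 (1.23 when averaged over its probe sets) and Selplg, the selectin ligand of leukocytes, by 2.35. Lyve1, of lymphatic vessels and some macrophages, fell by 2.27 (standard error 0.28), Tek, the angiopoietin receptor, by 1.70, and Pecam1, common to all endothelium, differed by -0.43 and did not pass, except with array weights (-0.42), under the replicate block (-0.53) and without severe colon 1 (-0.64).

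Markers of neighbouring tissues were also measured. Of 8 adipocyte genes 1 fell (12.5%, against 18.9% of all genes), Plin4 by 0.33. That fall did not pass in 6 of 19 settings, and 2 genes fell without control 4 or severe colon 1. Adipoq differed by -0.46 and did not pass. Of 6 mesothelial genes 2 rose, Msln by 0.68 and Upk1b by 0.54, the latter not under the methods' t-test or without severe colon 3 (0.44), and 4 rose with array weights or without severe colon 2. None of 3 erythroid genes passed. Of 6 pancreatic genes Cela1, an elastase also found outside the pancreas, fell by 3.05 (standard error 0.26), Ctrb1 and Prss2 rose by 0.35 and 0.27, and Cpa1 differed by 0.08. Prss2 did not pass in 9 of 19 settings, each control and each severe colon left out among them (0.21 to 0.30), nor Ctrb1 without control 3 (0.29) or severe colon 1 (0.31), where neither gene passed.

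The 3 severe colons did not respond to the same degree. Over the 718 genes at least 2-fold higher, severe colon 1 was the highest of the severe colons for 501 (69.8%) and severe colon 2 the lowest for 529 (73.7%), against 34.2% and 35.1% over all genes. Over the 949 genes at least 2-fold lower, the highest severe colon was colon 1 for 34.8%, colon 2 for 37.8% and colon 3 for 27.4%. The median SD over the 718 genes was 0.42 in severe and 0.21 in control colons, and over the 949 genes 0.26 and 0.21. These genes were chosen with the same arrays, so the shares are a description. The orders also differed between lists: severe colon 2 was the highest for 20 of 31 detoxification genes that fell and for none of 15 smooth muscle genes. Among controls, control 4 was the highest for 37.6% of the 718 genes and 5.58% of the 949. Without control 4, 711 of the 718 and 941 of the 949 still passed.

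**Figure D4:**
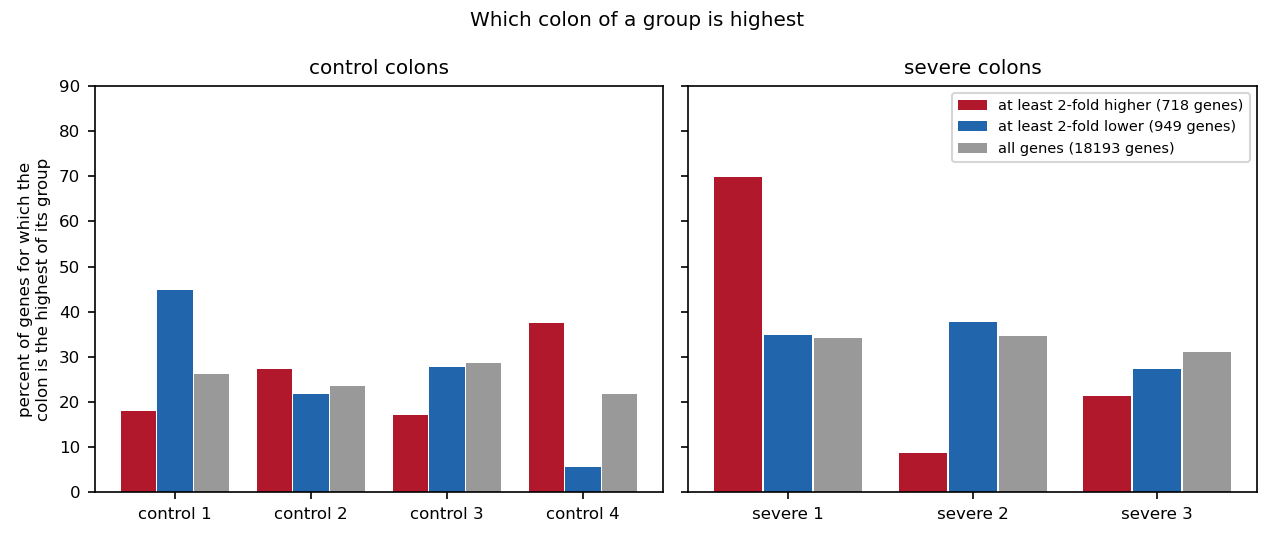
Percent of genes for which each colon was the highest of its own group, for the 718 genes at least 2-fold higher (red), the 949 at least 2-fold lower (blue) and all 18193 genes (grey), over 4 control colons (left) and 3 severe colons (right). Severe colon 1 stands at 69.8% for the higher genes, and control 4 at 37.6% for the higher and 5.58% for the lower genes.

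Severe colons were not told apart from moderate colons by any single gene. Of 18193 genes 0 passed in severe against moderate (0%, limma; smallest adjusted p 0.233), with 922 (5.07%) at an unadjusted p under 0.05, 397 of them higher in severe. The methods' t-test also called 0, with 643 at an unadjusted p under 0.05. Leaving out 1 array called 0 to 14 genes higher and 0 to 6 lower, the most without moderate colon 2. The 95% interval of the difference lay within 1 log2 unit of 0 for 17480 genes (96.1%), with a median distance from the difference to either bound of 0.26. These intervals are not adjusted over all genes and give no limit of detection. With 3 colons a group larger differences also failed to pass, such as S100a9 at 2.47 (limma, adjusted p = 0.862) and Cyp2c55 at -2.01 (adjusted p = 0.551).

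Means differed by at least 2-fold for 85 genes (0.467%) between severe and moderate, for 1689 (9.28%) between severe and control and for 1309 (7.2%) between moderate and control. Severe and moderate colons were compared with the same 4 controls, so their values are given side by side. Over the 718 genes the median difference from control was 1.71 in severe and 1.42 in moderate colon, and over the 949 genes -1.43 and -1.20, in lists chosen by severe colon. Cyp2c55 had moderate and severe means of 6.90 and 4.88, S100a8 of 11.51 and 13.37, and H2-Aa of 13.35 and 13.16. The smallest p, chosen after values were seen, was that of Msln, the mesothelin of mesothelium and regenerating epithelium. It was 5.16, 5.12 and 5.18 in severe and 4.48, 4.36 and 4.63 in moderate colons, with a difference of 0.67 (95% interval 0.45 to 0.89). Myb was 10.13, 10.06 and 9.96 in severe and 10.66, 10.53 and 10.59 in moderate colons, with a difference of -0.54 (95% interval -0.72 to -0.37). Both stood apart with no overlap and neither passed adjustment.

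**Figure D5:**
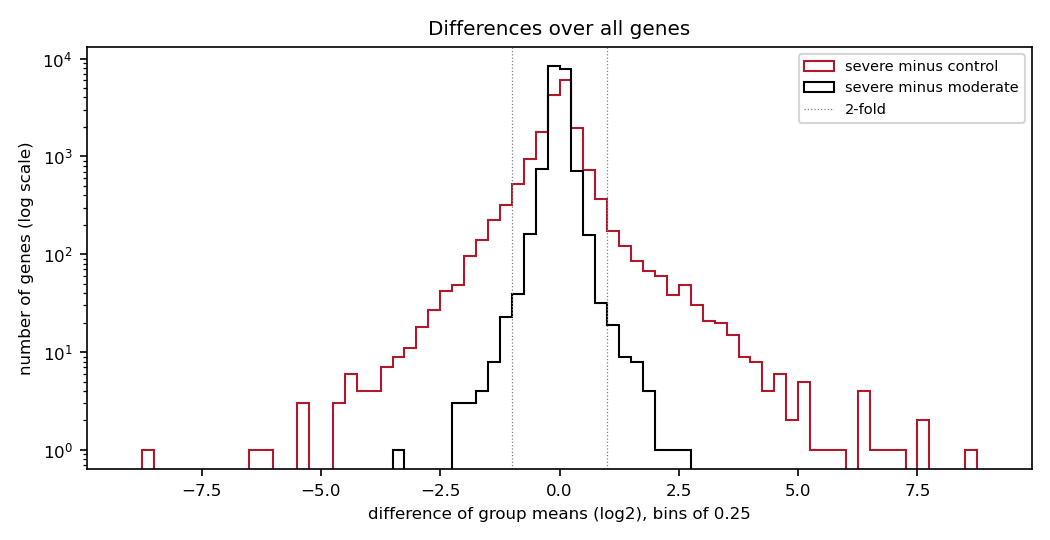
Number of genes (log scale) by the difference of group means, in bins of 0.25 log2 units, for severe minus control (red) and severe minus moderate (black), with dotted lines at 2-fold. The red line reaches from -8.63 to 8.59, with 1689 genes past the dotted lines against 85 for the black.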

How the data were processed

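Distal colon RNA was labelled by the 3′IVT protocol and hybridised to Affymetrix whole-genome mouse arrays, 1 per mouse. The authors deposited log2 values, made with Affymetrix Expression Console and RMA per the submitters' processing notes, whose versions are not given in the sources used here. RMA compresses low signals, and detection calls were not used here. Of 45101 probe sets, 34945 were annotated to 1 gene, 932 to several, 9160 to none and 64 were controls. For each of 18193 genes the probe set brightest on average over the 10 arrays was used, and 9010 genes had more than 1.

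Groups came from the labels. The 3 groups were fitted together with limma 3.58.1 in R 4.3.3, with contrasts severe against control and severe against moderate, p-values adjusted over all genes by Benjamini-Hochberg and a two-sided threshold of 0.05. The fit was tested on simulated data. The number of arrays limits the precision. The methods' t-test is the unpaired t-test the study names, run here on the same values as an alternative. The other alternatives were the normalization, the filter on dim genes, the choice of probe set, array weights, the variance model, the replicate block and each array left out.

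The members and gene lists were chosen with earlier results of these data known, so list counts are descriptions. Genes were named by a rule. It took the 15 largest rises and falls without overlap between the groups, and up to 3 of each in every list, also without overlap. It also took cell type markers and members behind a count of 5 or fewer. For the largest rises and falls, the lack of overlap was thus fixed by the rule. A further 69 genes were named after their values were seen, among them every list member given as not passing that is no cell type marker.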

Additional observations from a re-analysis of the deposited data

Results flagged for a closer look

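Among the genes named, a control colon stood apart from the other 3 by Dixon's test for 17 of 281 genes tested, a share near the 1 in 20 groups that chance flags. Control 3 stood apart for Slc39a4 (10.512), Klk1 (14.073), Birc5 (8.603) and Slc1a5 (9.352), all higher or lower than a tight trio, and for Cyp2j6 (7.351). Control 2 stood apart for Sprr2h (3.668), Atoh1 (9.509), Arg1 (4.433), Mcpt2 (4.252) and Spdef (8.083). Control 4 stood apart for Duoxa2 (6.105), Tbx21 (3.854) and Mcpt1 (3.030), and control 1 for Acadl (11.094), Il10 (3.356), Nos2 (4.599) and Scnn1g (5.685). Severe and moderate colons, 3 a group, could not be tested in this way.

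Of the 9160 probe sets annotated to no gene, 1131 (12.3%) passed in severe against control, 446 higher and 685 lower, in data that no comparison of genes used.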

How the results depend on the processing

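With every probe set tested in place of 1 per gene, 4976 rose and 5922 fell. Leaving out 1 array gave 2207 to 2986 genes higher and 2886 to 3456 lower, the fewest without severe colon 3, and in severe against moderate 0 to 14 higher and 0 to 6 lower. The remaining settings kept the counts against control within 1.5 times. The replicate block gave 2639 higher and 3184 lower. Same-numbered severe and control colons correlated at -0.0107, 0.0313 and -0.0114 in their deviations from the group means. Other pairs lay from -0.1828 to 0.1140. This cannot say whether same-numbered colons shared a litter or array date, which the labels do not give. Of the 282 named genes that passed, 218 kept call and direction in every setting and 64 lost the call in at least 1, most often under the methods' t-test (50) and without severe colon 3 (37). Of the 61 that did not pass, 16 passed in at least 1 setting, most often with array weights (6). Under the mean over probe sets Cycs reversed to -0.0312 and Prf1, which did not pass, to 0.2177, and the cause was not tested. With 3 severe colons some small differences may have been missed, although others passed, such as Cldn7 at 0.27. Dim genes have uncertain sizes.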
